A study of Homo sapiens with 10 samples.

Results

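Proteasome subunit genes were examined in chromatin immunoprecipitation sequencing (ChIP-seq) peak lists of 22RV1, a cell line established from a human prostate cancer. The set holds every protein-coding gene named PSMA, PSMB, PSMC, PSMD, PSME, PSMF or PSMG followed by digits, which gave 48 of the 20037 protein-coding genes on chromosomes 1-22, X and Y in RefSeq GRCh38.p14. By textbook role, 16 are core subunits, 17 are cap subunits, 3 are immunoproteasome subunits (PSMB8, PSMB9 and PSMB10), 7 act in assembly and 5 are activators or an inhibitor. The rule itself, which goes by gene symbol, used no measured value.

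The libraries form 3 pairs with 1 library in each group. An siRNA against RB1 was set against a control siRNA, a plasmid with HA-tagged RB residues 245-255, HA-RB(245-255), against its empty vector EV(245-255), and a plasmid for HA-RBN, an HA-tagged insert for which the labels give only the name RBN, against its own empty vector EV(RBN). All were transfected 22RV1 cultures of 1 line. The labels name neither the antibody nor the promoter of the plasmids, and the title of the study is about the chromatin reader TRIM24. A label field places the HA-RB(245-255) library in a control group, and its title, which names the construct, was followed. The design text of the series starts that fragment 1 residue earlier. The lists hold binding and not expression, so the cell type could not be checked against marker genes.

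The proteasome is the protease that degrades ubiquitin-tagged proteins. Its 20S core is a barrel of outer alpha rings (PSMA) and inner beta rings (PSMB), and only some beta subunits cut protein. The 19S cap binds the barrel end, where a ring of ATPases (PSMC) unfolds substrates and other subunits (PSMD) bind ubiquitin and remove it. The immunoproteasome swaps the cutting beta subunits for PSMB8, PSMB9 and PSMB10, which interferon gamma induces. Dedicated chaperones assemble the core (PSMG1 to PSMG4) and the base of the cap (PSMD5, PSMD9 and PSMD10), and PSME1 to PSME4 open the core in place of the cap.

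The promoter sequences of members on which the results below turn are shown first, from 250 bases before to 50 after the annotated start of transcription (RefSeq, GRCh38.p14, 5′ to 3′ on the strand of the gene). The first 5 belong to the genes with a gene end summit in every library. PSMA1 follows because its annotated start lies deep inside the gene, and PSMB9 because it had the highest immunoproteasome summit within 1 kb of a gene end. Capitals mark matches on either strand to any of the 9 motifs searched, where overlapping matches run together.
PSMC4, chr19:39970915-39971214, plus strand: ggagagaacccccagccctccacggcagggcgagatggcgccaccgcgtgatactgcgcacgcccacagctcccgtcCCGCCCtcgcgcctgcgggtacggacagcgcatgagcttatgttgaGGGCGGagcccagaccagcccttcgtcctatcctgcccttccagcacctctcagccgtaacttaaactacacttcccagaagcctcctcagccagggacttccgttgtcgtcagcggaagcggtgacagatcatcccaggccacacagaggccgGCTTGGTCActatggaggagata
PSMG1, chr21:39183402-39183701, minus strand: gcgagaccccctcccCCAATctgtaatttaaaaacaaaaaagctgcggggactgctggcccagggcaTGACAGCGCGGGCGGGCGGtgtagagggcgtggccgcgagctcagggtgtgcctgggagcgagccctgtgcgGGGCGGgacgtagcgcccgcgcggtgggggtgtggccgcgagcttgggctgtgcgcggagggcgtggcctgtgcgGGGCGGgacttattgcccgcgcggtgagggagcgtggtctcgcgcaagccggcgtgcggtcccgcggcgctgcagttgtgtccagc
PSMA5, chr1:109426399-109426698, minus strand: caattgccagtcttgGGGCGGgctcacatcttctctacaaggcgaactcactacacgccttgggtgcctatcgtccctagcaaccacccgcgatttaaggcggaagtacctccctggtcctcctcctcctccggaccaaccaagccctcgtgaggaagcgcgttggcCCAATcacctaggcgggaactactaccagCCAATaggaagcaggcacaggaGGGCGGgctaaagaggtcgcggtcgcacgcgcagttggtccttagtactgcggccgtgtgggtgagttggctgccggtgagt
PSMD1, chr2:231056617-231056916, plus strand: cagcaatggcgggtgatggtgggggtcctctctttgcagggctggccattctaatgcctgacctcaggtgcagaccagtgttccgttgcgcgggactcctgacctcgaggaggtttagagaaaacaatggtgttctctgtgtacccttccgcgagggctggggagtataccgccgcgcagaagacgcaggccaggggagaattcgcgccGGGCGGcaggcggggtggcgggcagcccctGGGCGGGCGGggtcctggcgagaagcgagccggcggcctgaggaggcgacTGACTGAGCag
PSMD7, chr16:74296564-74296863, plus strand: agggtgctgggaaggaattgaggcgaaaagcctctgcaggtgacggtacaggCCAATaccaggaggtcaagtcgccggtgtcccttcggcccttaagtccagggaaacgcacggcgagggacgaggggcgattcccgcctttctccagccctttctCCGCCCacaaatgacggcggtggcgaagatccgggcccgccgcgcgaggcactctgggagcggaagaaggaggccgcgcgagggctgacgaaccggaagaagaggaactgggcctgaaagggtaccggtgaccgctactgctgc
PSMA1, chr11:14520337-14520636, minus strand: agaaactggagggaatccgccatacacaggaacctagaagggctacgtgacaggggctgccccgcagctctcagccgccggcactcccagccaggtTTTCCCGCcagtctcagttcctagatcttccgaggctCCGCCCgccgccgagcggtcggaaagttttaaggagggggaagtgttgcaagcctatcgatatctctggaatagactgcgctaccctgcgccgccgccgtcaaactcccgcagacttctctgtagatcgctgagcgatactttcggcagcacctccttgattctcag
PSMB9, chr6:32853942-32854241, plus strand: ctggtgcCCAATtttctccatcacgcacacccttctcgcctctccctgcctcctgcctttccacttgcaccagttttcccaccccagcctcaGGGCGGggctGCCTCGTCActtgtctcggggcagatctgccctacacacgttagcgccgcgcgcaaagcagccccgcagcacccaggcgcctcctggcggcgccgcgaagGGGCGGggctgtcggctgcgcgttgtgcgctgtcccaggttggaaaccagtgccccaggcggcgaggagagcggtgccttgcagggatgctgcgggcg

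Of the 48 members, 42 had such a promoter in the table, and PSMA7, PSMB1, PSMB6, PSMB7, PSMD4 and PSMG3 did not. The motif GGGCGG, a GC box of the SP1 type, was found in 28 of the 42 (66.7%), against 58.3% of 15842 promoters. CCAAT, the NF-Y box, was in 19 (45.2%), against 36.4%. TGACNNNGC, the core of the antioxidant response element to which the proteasome regulator NFE2L1 is known to bind, was in 13 (31.0%), against 14.4%. CCGGAAGT, an ETS-type motif, was in 8 (19%), against 6.15%, and among its carriers were PSMC1, PSMC2, PSMD12 and PSMD13. The E2F-type motifs TTTGGCGC and TTTCCCGC were in 2 each, PSMD5 and PSMD9 for the first and PSMA1 and PSMB3 for the second, against 0.884% and 2.17%. AAGATGGCG of YY1 was in PSMA2 and PSMD11 (2.69% of all promoters), the palindromic site of nuclear respiratory factor in PSMA4 (1.77%), and TGACGTCA, the cyclic AMP element, in 0 of the 42 (2.56%). Both strands were searched. Member promoters had a median GC content of 62.0%, against 62.7%, and a median of 22 CG steps, the same as in all promoters. These matches describe letters in a window of 300 bases.

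Each deposited peak lists 1 summit, the point where most sequenced fragments overlap. The number of fragments stacked there was solved from the fold enrichment and the p-value that the authors list for the peak, and a gene counted as listed in a library when a summit lay within 1 kb of either gene end. The background of a library, an index of its depth, was 0.539 fragments per base with RB1 siRNA, 0.413 with the control siRNA, 0.250 in HA-RB(245-255), 0.187 in EV(245-255), 0.634 in HA-RBN and 0.367 in EV(RBN). Peaks of the siRNA and 245-255 libraries were wide intervals with medians between 18225 and 83581 bp, so a gene inside an interval may carry a lower stack that is not listed. In the RBN pair the medians were 522 bp in HA-RBN and 450 bp in EV(RBN). With 1 library per group no difference between conditions can be tested, and every interval given covers counting error only.

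Most proteasome genes had a gene end summit in the RBN pair and fewer did in the other libraries. Each siRNA and 245-255 library has an IgG partner and the RBN libraries have none. Differences between the RBN pair and the other libraries cannot be told apart from this. The lists differ in length, from 20860 peaks with the control siRNA to 243310 in HA-RBN. Cut to the same length they listed 37 members in HA-RBN and 25 in EV(RBN), against 14 to 22 in the other libraries. The share of all genes in the cut lists was not computed, so these counts do not set members apart from other genes. With RB1 siRNA 18 of 48 members were listed (37.5%, exact 95% interval 24 to 52.6), against 33.5% of all genes. In the control siRNA library 14 were (29.2%, 17.0 to 44.1), against 28.1% of all genes. HA-RB(245-255) listed 23 (47.9%, 33.3 to 62.8), against 45.5%, and EV(245-255) listed 29 (60.4%, 45.3 to 74.2), against 45.4%. HA-RBN listed 44 (91.7%, 80.0 to 97.7), against 73.4%, and EV(RBN) listed 40 (83.3%, 69.8 to 92.5), against 60.2%. The share of members lay above that of all genes in each library. The exact interval held the share of all genes for both siRNA libraries, HA-RB(245-255) and EV(245-255), and lay above it in HA-RBN and EV(RBN). Limited to peaks with a −log10 q of at least 5, the counts were 0 in the siRNA and 245-255 libraries, 26 in HA-RBN and 8 in EV(RBN).

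**Figure D1:**
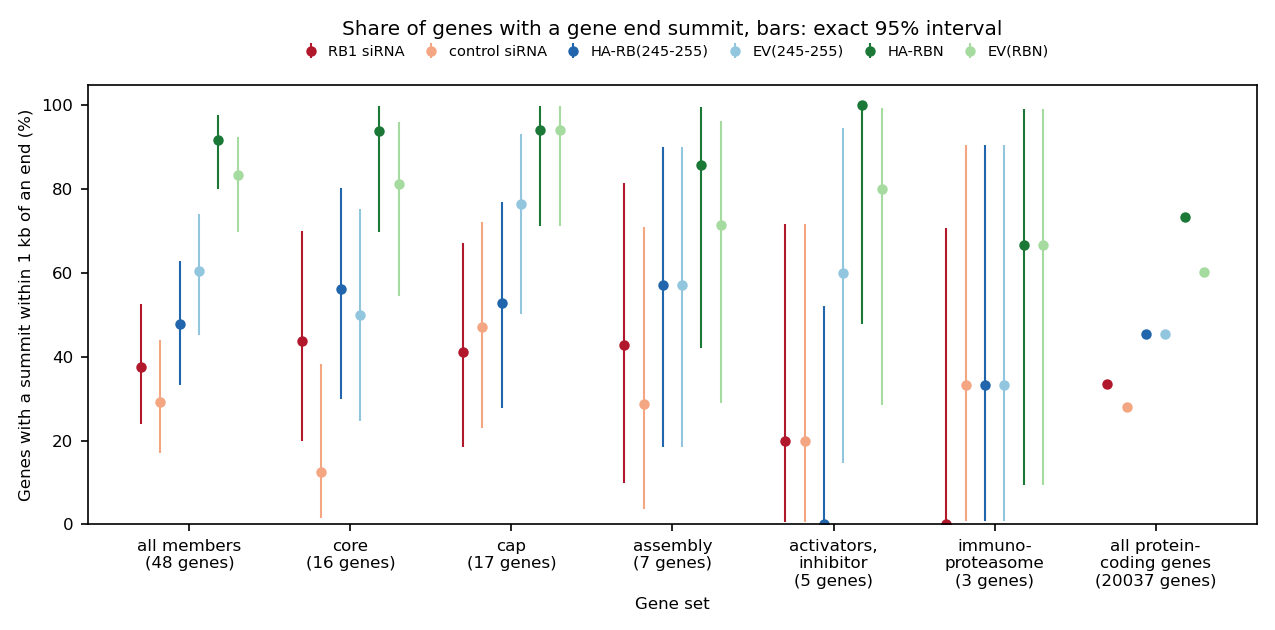
Share of genes (%) with a summit within 1 kb of a gene end, for all 48 members, their 5 classes and all 20037 protein-coding genes. Points are the 6 libraries, 1 per group, and bars, drawn for the members and their classes, are exact 95% intervals for counting error. Members reach 91.7% in HA-RBN and 83.3% in EV(RBN), against 73.4% and 60.2% of all genes in those libraries.

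Most of these summits stood at the gene end on the side where transcription starts, called the start end here. PSMA1 counts by this outer end, which lies 123276 bp from its annotated start. For members with an annotated strand the listed summit was at the start end in 17 of 17 cases with RB1 siRNA, 14 of 14 with the control siRNA, 20 of 20 in HA-RB(245-255), 24 of 27 in EV(245-255), 36 of 38 in HA-RBN and 33 of 35 in EV(RBN). Among those within 1 kb of an annotated start site the median position relative to it, negative upstream, was −64 bp with RB1 siRNA, −110 bp with the control siRNA, −138 bp in HA-RB(245-255), −42.5 bp in EV(245-255), −62 bp in HA-RBN and −148.5 bp in EV(RBN). The range was widest in EV(RBN), from −736 to 822 bp, and ran from −469 to 400 bp in HA-RBN.

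**Figure D2:**
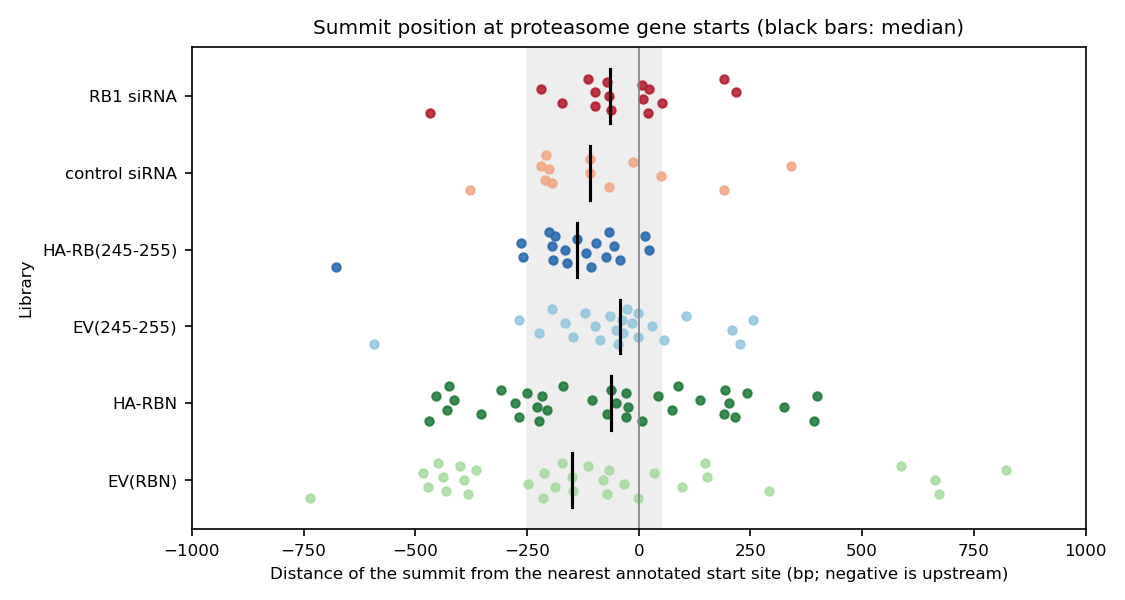
Distance of listed member summits from the nearest annotated start site of that gene (bp, negative is upstream), by library. Only summits at the start end and within 1 kb of an annotated start site are drawn, which gives 35 points in HA-RBN. Points are genes, black bars are medians, which lie between −148.5 and −42.5 bp, and the grey band is the promoter window from 250 bases before to 50 after the start.

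A summit was listed at an end of 5 members in all 6 libraries (10.4%), against 13.1% of all genes, and 2 members had one in no library (4.17%), against 14.1%. The 5 were the core subunit PSMA5, the cap ATPase PSMC4, the cap scaffold PSMD1, the cap subunit PSMD7 and the core chaperone PSMG1. Their levels varied among themselves by library.

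PSMC4 (chr19:39971165-39981764), which encodes an ATPase of the cap base, had 59 fragments with RB1 siRNA, 48 with the control siRNA, 34 in HA-RB(245-255), 59 in EV(245-255), 21 in HA-RBN and 7 in EV(RBN). Divided by the library background, the stacks stood at 110, 116, 136, 315, 33.1 and 19.1 times in that order. EV(245-255) held its highest enrichment. Both RBN libraries were low at all genes, with median enrichments at listed gene ends of 15.8 times in HA-RBN and 13.6 times in EV(RBN), and PSMC4 was above both. All 6 summits lay upstream of the start, from 29 bp in HA-RBN to 450 bp in EV(RBN), and the summits of the siRNA, 245-255 and HA-RBN libraries fall inside the sequence printed above.

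PSMG1 (chr21:39174769-39183514), a chaperone of alpha ring assembly, had 68 fragments with RB1 siRNA, 43 with the control siRNA, 50 in HA-RB(245-255), 32 in HA-RBN and 15 in EV(RBN) at its start. The siRNA and HA-RB(245-255) summits stood at the same base, 66 bp upstream of the annotated start. In EV(245-255) the listed summit had 2 fragments and stood 978 bp inside the other end of the gene, and no interval of that list covered the start. EV(245-255) was thus the library without a start summit here, and a gap in a list cannot be read as absence of binding. The end of BRWD1, a bromodomain gene, lay 659 bp from the siRNA summits.

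PSMA5 (chr1:109399042-109426448), an alpha ring subunit, had 53 fragments with RB1 siRNA, 45 with the control siRNA, 36 in HA-RB(245-255), 30 in EV(245-255), 30 in HA-RBN and 10 in EV(RBN). PSMD1 (chr2:231056867-231172827), a scaffold subunit of the cap, had 30, 29, 14, 12, 22 and 4 in the same order. PSMD7 (chr16:74296814-74306288), partner of the deubiquitinase PSMD14, had 18, 12, 8, 16 and 11 at its start in the first 5, and in EV(RBN) only 2 fragments at its far end. EV(RBN) held the lowest number for PSMA5 and PSMD1, and for PSMD7 its value is from a different gene end. Its median over all listed gene ends, 5 fragments, was also the lowest of the libraries.

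**Figure D3:**
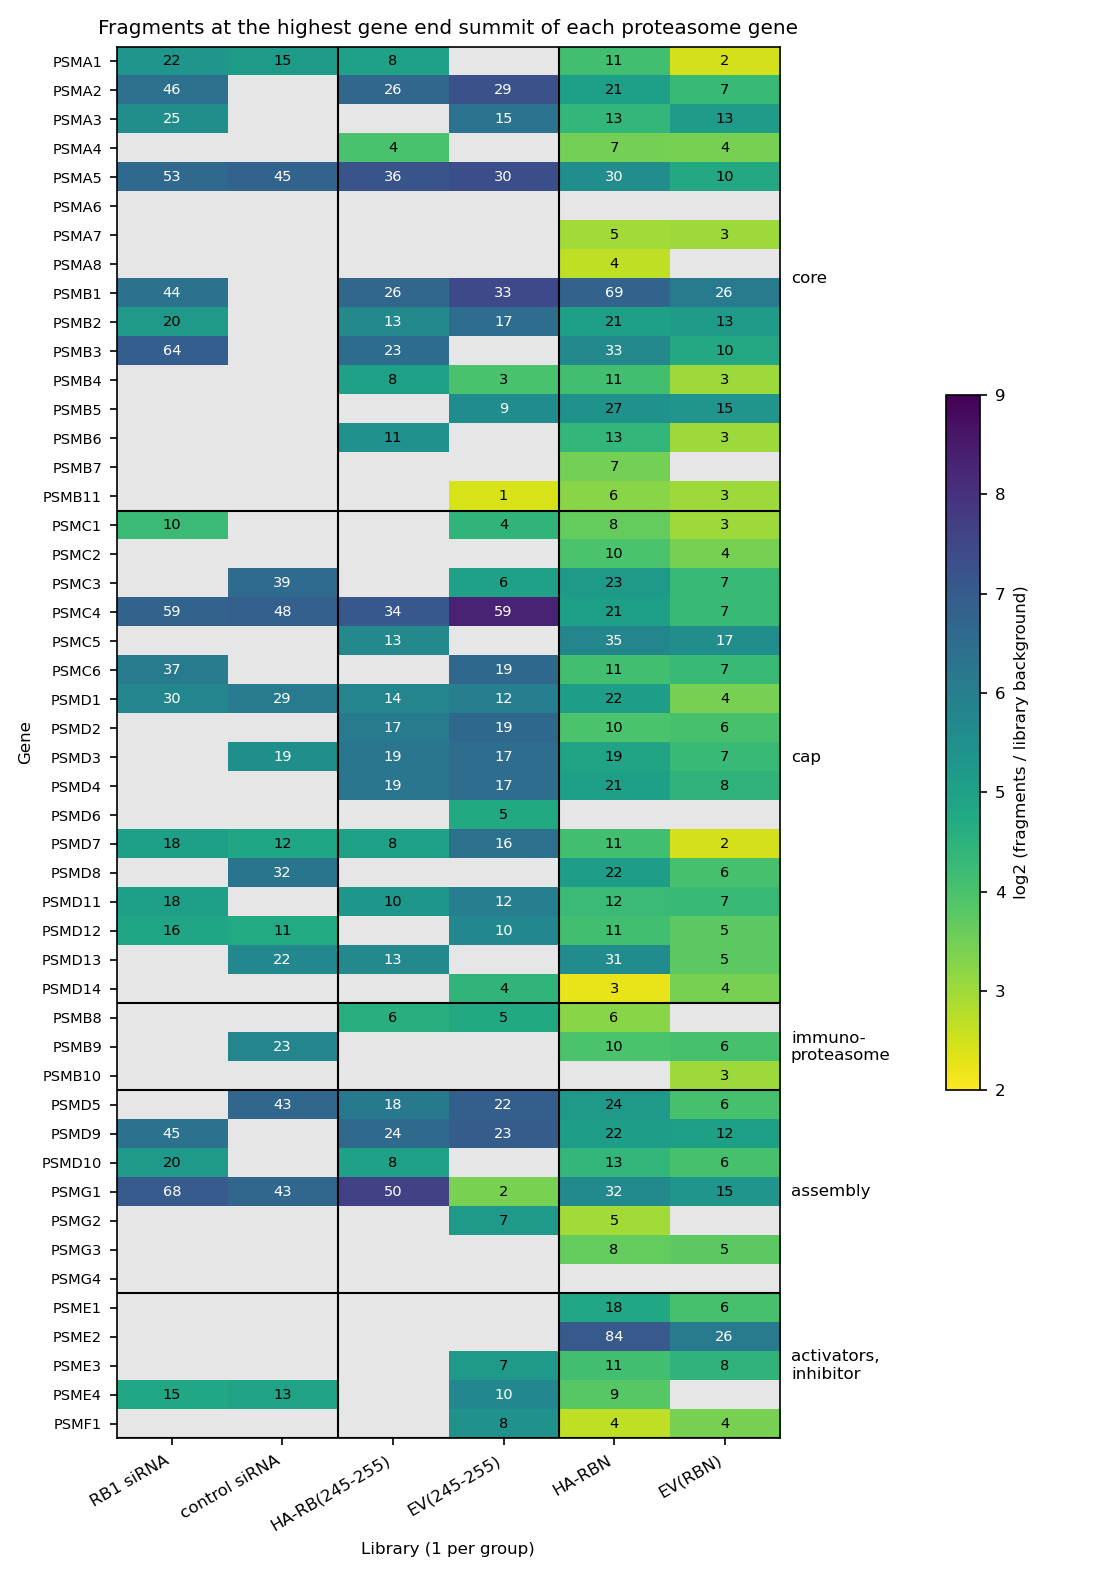
Fragments at the highest gene end summit of each of the 48 members (numbers), with colour for log2 of fragments over the library background. Rows are genes grouped by class, columns are the 6 libraries, and grey cells have no summit within 1 kb of a gene end. The siRNA columns are grey for 30 and 34 members and the RBN columns for 4 and 8.

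Core and cap genes were counted separately. Among the 16 core genes 7, 2, 9, 8, 15 and 13 were listed with RB1 siRNA, the control siRNA, HA-RB(245-255), EV(245-255), HA-RBN and EV(RBN). Among the 17 cap genes the numbers were 7, 8, 9, 13, 16 and 16 in that order. The widest gap was in the control siRNA library, at 12.5% for core (1.55 to 38.3) and 47.1% for cap (23 to 72.2), and these intervals overlap. In EV(245-255) the shares were 50% for core (24.7 to 75.3) and 76.5% for cap (50.1 to 93.2), and the difference between the classes was not tested. Assembly genes had 3, 2, 4, 4, 6 and 5 of 7, and the activators and inhibitor 1, 1, 0, 3, 5 and 4 of 5.

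Within the core, the beta subunit PSMB3 stood highest with RB1 siRNA, and PSMB1 in EV(245-255), HA-RBN and EV(RBN). The alpha subunit PSMA5 stood highest with the control siRNA, at 45 fragments, and in HA-RB(245-255), at 36. With RB1 siRNA the alpha subunits PSMA5 and PSMA2, at 53 and 46 fragments, stood above PSMB1. In EV(245-255), HA-RBN and EV(RBN) both were below it, and in HA-RB(245-255) PSMA2 equalled it at 26. PSMB1, a non-cutting beta subunit, had 44 fragments with RB1 siRNA, 26 in HA-RB(245-255), 33 in EV(245-255), 69 in HA-RBN and 26 in EV(RBN), and no listed summit with the control siRNA. Each of these PSMB1 summits lay within 243 bp of an end of TBP, the gene of the TATA-binding protein. They were between 819 and 987 bp from the end of PSMB1 itself, so the stack cannot be assigned to either gene. PSMB3 had 64 with RB1 siRNA, 23 in HA-RB(245-255), 33 in HA-RBN and 10 in EV(RBN). PSMB5, which carries the chymotrypsin-like activity, had 9 in EV(245-255), 27 in HA-RBN and 15 in EV(RBN). PSMB6, another cutting subunit, had 11 in HA-RB(245-255), 13 in HA-RBN and 3 in EV(RBN), and PSMB7, the remaining one, had 7 in HA-RBN. The germ cell form PSMA8 had a summit in HA-RBN alone, of 4 fragments at its far end, and the thymus form PSMB11 had 1 fragment in EV(245-255), at its far end, 6 in HA-RBN and 3 in EV(RBN).

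Among cap genes the ATPases ran from 8 fragments at PSMC1 to 35 at PSMC5 in HA-RBN, and from 3 to 17 at the same genes in EV(RBN). PSMC3 had 39 with the control siRNA, 6 in EV(245-255), 23 in HA-RBN and 7 in EV(RBN). Of the non-ATPase subunits, PSMD4, a ubiquitin receptor, had 19 in HA-RB(245-255), 17 in EV(245-255), 21 in HA-RBN and 8 in EV(RBN). PSMD14, the deubiquitinase, stayed at 4 in EV(245-255), 3 in HA-RBN and 4 in EV(RBN). PSMD6 had a gene end summit in EV(245-255) alone, with 5 fragments.

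Of the chaperones of the cap base, PSMD5 and PSMD9 stood at or above the median of listed members wherever they were listed. PSMD10 lay below that median with RB1 siRNA and in HA-RB(245-255), and close to it in the RBN pair. PSMD5 had 43 fragments with the control siRNA, 18 in HA-RB(245-255), 22 in EV(245-255), 24 in HA-RBN and 6 in EV(RBN). PSMD9 had 45 with RB1 siRNA, 24, 23, 22 and 12 in the last 4 libraries in that order, within 187 bp of an end of HPD. PSMD10, known as gankyrin, had 20 with RB1 siRNA, 8 in HA-RB(245-255), 13 in HA-RBN and 6 in EV(RBN).

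Among the activators, PSME2 had the highest stack of any member in HA-RBN and shared the top of EV(RBN) with PSMB1. This gene, whose product forms the interferon-induced PA28 ring with that of PSME1, had 84 fragments in HA-RBN and 26 in EV(RBN), within 172 bp of an end of RNF31, a subunit of the linear ubiquitin ligase. The summits lay farther from the end of PSME2 itself, at 425 bp in HA-RBN and 437 bp in EV(RBN). The stack therefore cannot be assigned to either gene. PSME1 had 18 in HA-RBN and 6 in EV(RBN). Neither PSME1 nor PSME2 was listed in the other 4 libraries. PSME4, of the PA200 activator, had 15 with RB1 siRNA, 13 with the control siRNA, 10 in EV(245-255) and 9 in HA-RBN.

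Listed immunoproteasome genes numbered 0, 1, 1, 1, 2 and 2 of 3 from RB1 siRNA to EV(RBN), too few to set against the 28.1% to 73.4% of all genes. PSMB8 (chr6:32840717-32844679) had 6 fragments in HA-RB(245-255), 5 in EV(245-255) and 6 in HA-RBN, all within 44 bp of its start. PSMB9 (chr6:32854192-32859851) had 23 with the control siRNA, 10 in HA-RBN and 6 in EV(RBN), and these lay between 219 and 392 bp upstream of its start and within 269 bp of an end of TAP1, the peptide transporter gene beside it. PSMB10 (chr16:67934506-67936850) had 3 fragments in EV(RBN), 400 bp upstream of its start. PSMB9 stood close to the median of all listed gene ends, which was 24 fragments with the control siRNA, 10 in HA-RBN and 5 in EV(RBN), while PSMB8 with 5 or 6 fragments lay below the medians of 11, 11 and 10 in its 3 libraries.

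PSMB10 shows what the limit of 1 kb does. Its own gene held summits just outside the limit, with 21 fragments in HA-RB(245-255), 27 in EV(245-255), 23 in HA-RBN and 11 in EV(RBN), at 1263, 1195, 1087 and 1215 bp downstream of its start. These were higher than every immunoproteasome summit inside the limit in the same libraries. Just inside the limit stood the PSMG1 summit of EV(245-255), at 978 bp.

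Some members are annotated with starts deep inside the gene, which the gene end rule misses. PSMA1 (chr11:14504876-14643662) has its annotated start 123276 bp from the outer end. At that start there were 64 fragments with RB1 siRNA, 60 with the control siRNA, 16 in HA-RB(245-255), 19 in EV(245-255), 21 in HA-RBN and 8 in EV(RBN). The outer end had 22, 15, 8, none listed, 11 and 2 in the same order, beside an end of PDE3B, a phosphodiesterase gene. The inner start was thus the higher site in each library. PSMG4, 1 of the 2 members with no gene end summit, had 11 fragments with RB1 siRNA, 15 in HA-RB(245-255), 17 in EV(245-255) and 7 in HA-RBN near its annotated start, at −53, −91, −57 and −358 bp. PSMA6, the other, had 11 in HA-RB(245-255), 7 in EV(245-255), 11 in HA-RBN and 4 in EV(RBN) within 217 bp of an inner start. PSMG2 had 18 with RB1 siRNA, 17 with the control siRNA, 9 in HA-RB(245-255), 8 in EV(245-255) and 13 in HA-RBN at −257, −71, −252, −445 and −157 bp from an inner start. PSMF1, which encodes a proteasome inhibitor, had 16 with RB1 siRNA, 6 in HA-RB(245-255), 7 in EV(245-255), 15 in HA-RBN and 4 in EV(RBN) within 412 bp of an inner start.

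Counted by annotated start sites in place of gene ends, 20 of 42 members were listed with RB1 siRNA (47.6%, 32.0 to 63.6), against 36.6% of the 15842 genes with a start. The control siRNA list had 15 (35.7%, 21.6 to 52.0), against 30.7%. HA-RB(245-255) had 25 (59.5%, 43.3 to 74.4), against 47.1%, and EV(245-255) had 27 (64.3%, 48.0 to 78.4), against 46.9%. HA-RBN had 40 (95.2%, 83.8 to 99.4), against 71.8%, and EV(RBN) had 35 (83.3%, 68.6 to 93.0), against 57.0%. This way of counting was chosen after the values were seen.

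The height of listed member summits was close to that of other gene ends. The median was 27.5 fragments with RB1 siRNA, against 26.0 at all listed gene ends, and 26.0 with the control siRNA, against 24. It was 14 in HA-RB(245-255), against 11, and 12 in EV(245-255), against 11. In HA-RBN it was 12.5, against 10.0, and in EV(RBN) 6, against 5. Only listed members enter these medians. A gene end summit shared with another gene was found for 6, 5, 8, 5, 13 and 11 listed members in the library order above (33.3%, 35.7%, 34.8%, 17.2%, 29.5% and 27.5%), against 26.0%, 28.6%, 25.9%, 26.2%, 24.2% and 26.7% of all listed genes.

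The siRNA pair asks what depletion of RB1 does to binding. Where both lists had a summit within 500 bp of each other and at least 20 fragments together, the ratio of fragments was taken relative to the median of all such shared gene ends. Of the 8 shared members 5 lay above that median and 3 below, with a median of 0.16 on the log2 scale. The lowest was PSMD1 at −0.21 (95% interval −1.0 to 0.57), and the highest was PSMG1 at 0.40 (−0.17 to 0.98). PSMC4 had 0.03 (−0.54 to 0.62) and PSMA5 −0.03 (−0.63 to 0.58). A difference past 1 log2 unit was found for 0 of the 8 in either direction, against 1.40% of 3005 shared gene ends higher and 0.732% lower. An interval above 0 was found for 0 of the 8 (2.60% of all) and below 0 for 0 (3.96%). Summed over the 8 there were 281 fragments with RB1 siRNA and 216 with the control siRNA, a relative log2 ratio of 0.12 (−0.14 to 0.38).

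A further 10 members (20.8%) were listed with RB1 siRNA alone, against 13.6% of all genes, and 6 (12.5%) with the control siRNA alone, against 8.17%. Of the 10, 8 lay inside a control interval whose single summit was elsewhere, and PSMA2 and PSMB1 lay in gaps of that list. All 6 of the others lay inside RB1 siRNA intervals. The covering summit held more fragments than the member in each of these 14 cases except PSMB3, which had 64 with RB1 siRNA while the covering control summit had 44. For members under a higher covering summit, presence in 1 list thus does not show a gain or a loss in this pair. This does not cover PSMA2, PSMB1 and PSMB3, where with 1 library per group a difference could not be tested.

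The 245-255 pair asks what the RB fragment around S249 and T252 does. PSMC4 had 34 fragments in HA-RB(245-255) and 59 in EV(245-255), a relative log2 ratio of −0.73 (−1.39 to −0.10). Scaled by the library backgrounds the ratio was −1.21 (−1.86 to −0.58). It was 1 of the 13 shared members with an interval below 0 (2.26% of 3322 shared gene ends), while 0 had an interval above 0 (1.93%). A difference past 1 log2 unit was found for 0 of the 13 in either direction, against 1.96% higher and 2.17% lower. PSMD7, with 8 in HA-RB(245-255) and 16 in EV(245-255), had −0.94 (−2.37 to 0.37), and at the other end PSMA5 had 0.32 (−0.42 to 1.07). In all 5 members lay above the median and 8 below, with a list median of −0.10. The 4 core members had a median of −0.19, the 7 cap members −0.10 and the 2 assembly members −0.05. Listed in HA-RB(245-255) alone were 7 members (14.6%), against 14.2% of all genes, and in EV(245-255) alone 13 (27.1%), against 14.1%. Of these 5 and 11 lay inside an interval of the other list.

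The RBN pair asks what the RBN insert does in lists of narrow peaks. Both lists held 39 of the 48 members. HA-RBN alone listed PSMA8, PSMB7, PSMB8, PSME4 and PSMG2, with 4 to 9 fragments (10.4% of members, against 20.4% of all genes), and EV(RBN) alone listed PSMB10 (2.08%, against 7.20%). The HA-RBN list is the longer, with 243310 peaks against 156785 in EV(RBN). PSMA6, PSMD6 and PSMG4 were in neither. The covering interval that hides members in the other pairs was found for 0 of these absences.

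Relative to the median of 3948 shared gene ends, 11 of the 20 shared members lay above and 9 below, with a median of 0.11. PSMD13, a cap subunit, had 31 fragments in HA-RBN and 5 in EV(RBN), at 1.16 (−0.22 to 2.88), and was 1 member past 1 log2 unit upward (4.64% of all shared gene ends). Its summits lay within 319 bp of an end of SIRT3, a mitochondrial deacetylase gene. They were farther from the end of PSMD13 itself, at 353 bp in HA-RBN and 364 bp in EV(RBN). This stack therefore cannot be assigned to either gene. PSMA3, an alpha ring subunit, had 13 in HA-RBN and 13 in EV(RBN), at −1.47 (−2.70 to −0.25), and was 1 member past 1 unit downward (3.12%). Scaled by the library backgrounds PSMA3 stood at −0.79 (−2.02 to 0.44), which met neither rule, and PSMD13 at 1.84 (0.47 to 3.56), which met both. The PSMA3 summits were 301 bp apart, 205 bp upstream of the start in HA-RBN and 96 bp downstream in EV(RBN). PSMA3 was also 1 member with an interval below 0 (1.95%), while 0 had one above 0 (2.23%). PSMD1 had 0.99 (−0.57 to 2.98), PSME2 0.22 (−0.43 to 0.91) and PSMB1 −0.07 (−0.74 to 0.64).

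By class, the 8 shared cap members had a median of 0.18 with 194 fragments in HA-RBN and 61 in EV(RBN), summed to a relative log2 ratio of 0.20 (−0.23 to 0.63). The 7 core members had a median of −0.07 with 214 and 94, summed to −0.29 (−0.64 to 0.08). The 3 assembly members had −0.38 and the 2 activators 0.16. The cap and core intervals overlap, and no immunoproteasome member reached 20 fragments over both libraries.

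**Figure D4:**
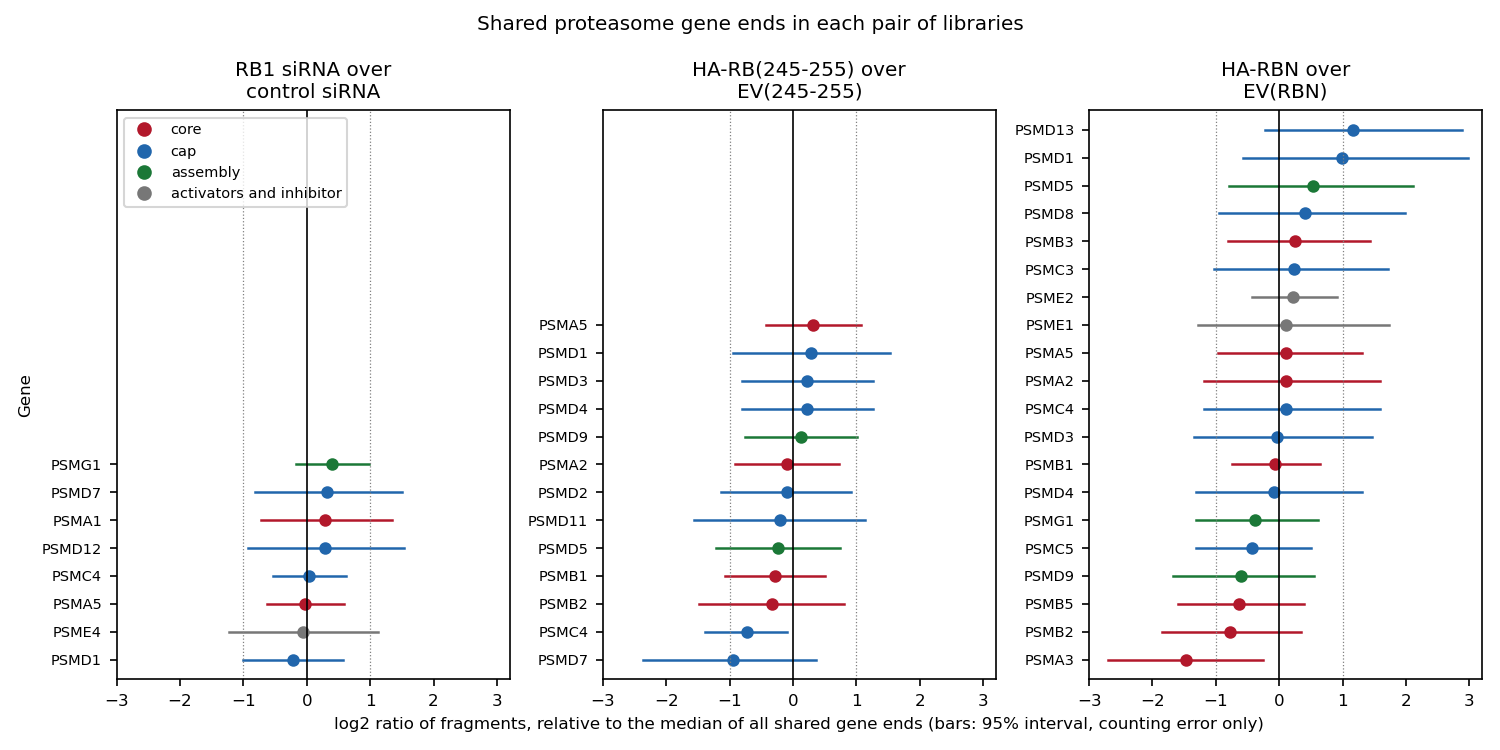
Log2 ratio of fragments at shared member gene ends, relative to the median of all shared gene ends of the pair, for 8, 13 and 20 members. Points are genes coloured by class, bars are 95% intervals for counting error, and dotted lines mark 1 log2 unit. PSMC4 at −0.73 in the 245-255 pair and PSMA3 at −1.47 in the RBN pair have intervals below 0, the second of which reaches 0.44 when scaled by the library backgrounds.

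Other genes of the pathway were taken from a list of 30, which holds further subunits, proteasome regulators, shuttles and ubiquitin genes. With RB1 siRNA 11 were listed (36.7%), against 33.5% of all genes, and with the control siRNA 18 (60%, 40.6 to 77.3), against 28.1%. HA-RB(245-255) and EV(245-255) listed 20 each (66.7%), against 45.5% and 45.4%. HA-RBN listed 29 (96.7%), against 73.4%, and EV(RBN) 25 (83.3%), against 60.2%. In the siRNA pair 8 of 9 shared genes lay above the median, with a list median of 0.43. UBE3C, a ubiquitin ligase that works on the proteasome, had 174 fragments with RB1 siRNA and 106 with the control siRNA, at 0.45 (0.10 to 0.81). It was the 1 gene of the 9 with an interval clear of 0. Over all shared gene ends of that pair 2.60% had an interval above 0 and 3.96% below. Scaled by the library backgrounds UBE3C stood at 0.33 (−0.02 to 0.69). In the 245-255 pair 6 of 11 lay above and 5 below, with a median of 0.01, and 0 intervals excluded 0. Over all shared gene ends of that pair 1.93% had an interval above 0 and 2.26% below. In the RBN pair 7 of 15 lay above and 8 below, with a median of −0.15. There NGLY1, the deglycosylase that NFE2L1 needs, had 16 in HA-RBN and 13 in EV(RBN), at −1.17 (−2.32 to 0.00). AKIRIN2, which carries proteasomes into the nucleus, had 31 and 21 in that order, at −0.91 (−1.76 to −0.04), and UFD1, a cofactor of the unfoldase VCP, had 74 and 43, at −0.69 (−1.25 to −0.11). Past 1 log2 unit downward was thus 1 of the 15 (3.12% of all shared gene ends), and upward 0 (4.64%). An interval below 0 was found for 2 of the 15 (1.95% of all), and above 0 for 0 (2.23%). Scaled by the library backgrounds the 3 ratios were −0.49 for NGLY1, −0.23 for AKIRIN2 and −0.01 for UFD1, and none of the 3 met a rule.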

How the data were processed

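The work used ChIP-seq peak lists of 6 libraries. Another 4 libraries, made with IgG, are not analysed here. The submitters' processing notes name MACS2 2.1.0, Bowtie 1.1.2, Trimmomatic 0.33, bcl2fastq 2.17 and the build hg38, without saying what each was used for. The deposited lists have no header and fit the narrowPeak layout without its name column, 1 list per library. For each peak the authors' deposited values are a fold enrichment (ratio over the local background), a −log10 p-value, a −log10 q-value, a score of 10 times the −log10 p that was not used, and the summit position. Neither read totals nor caller settings were at hand.

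Fragments were solved from fold and p with scipy 1.17.1, pandas 2.3.3 and numpy 2.4.6 under Python 3.11.15, taking the fold as pileup plus 1 over background plus 1 and the p-value as a Poisson tail, and the step was tested on simulated data. In the siRNA and 245-255 lists 1 fragment counts for between 0.0166 and 0.0512 of a unit of the listed pileup, and in the RBN lists for 1. Between 0 and 46 peaks per list had no solution. The background of a library is the most common local background among its peaks. Gene ends and promoters came from RefSeq GRCh38.p14, which shares the hg38 coordinates. Ratios are centred on the median of all shared gene ends, where genes sharing 1 summit count once, and carry exact binomial intervals. Shares carry Clopper-Pearson and fragment numbers Poisson 95% intervals.

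All members are accounted for. Values in full were given by rule for members listed in all or no libraries, those past 1 log2 unit or with an interval clear of 0, and the immunoproteasome genes. Other members given by value were picked after their values were seen. Members follow a rule on gene symbols. That rule and the list of 30 other pathway genes were chosen with earlier results of these data known. Alternatives changed the window, the q-value, the fragment minimum, the list length, the summit distance and the centring.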

Additional observations from a re-analysis of the deposited data

How the results depend on the processing

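Of the 60 values recomputed under other settings, 48 stayed within 1.5 times the reported count or, for list medians, within the counting error of the summed ratio. Among these the counts ranged from 17 to 20 with RB1 siRNA, 14 to 15 with the control siRNA, 17 to 30 in HA-RB(245-255), 22 to 33 in EV(245-255), 32 to 48 in HA-RBN and 34 to 44 in EV(RBN). The medians ranged from 0.01 to 0.16 in the siRNA pair, −0.16 to −0.09 in the 245-255 pair and 0.07 to 0.22 in the RBN pair. With peaks limited to −log10 q of at least 5, members at gene ends numbered 0 in each of the siRNA and 245-255 libraries, 26 in HA-RBN and 8 in EV(RBN). The listed pileup is scaled differently in the RBN lists, so this limit does not compare libraries. With at least 10 fragments they numbered 17 in EV(245-255) and 10 in EV(RBN), and with lists of the same length 25 in EV(RBN). Scaling by library background in place of the median of shared gene ends moved all ratios together, by 0.12, 0.48 and −0.68 of centre in the siRNA, 245-255 and RBN pairs, so the list medians became −0.58 in the 245-255 pair and 0.79 in the RBN pair. The RBN median was −0.14 with at least 40 fragments, where fewer genes enter. The summits of PSMA3 in the RBN pair were too far apart to be compared within 200 bp. No paired analysis was possible because each group has 1 library and no replicate number pairs them, and for the same reason no library could be left out. The count by start sites was chosen after seeing the data. The median listed member of EV(RBN) had 6 fragments, so ratios that rest on it have wide intervals.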

Other observations

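At some members the summits of different libraries fell on the same base. At the inner start of PSMA1 the summit stood at position 14520420 of chromosome 11 with RB1 siRNA, in HA-RB(245-255), EV(245-255) and HA-RBN, and at 14520421 with the control siRNA. PSMG1 had position 39183517 of chromosome 21 with RB1 siRNA, the control siRNA and in HA-RB(245-255). PSMD7 had position 74297004 of chromosome 16 with RB1 siRNA, the control siRNA and in HA-RBN. The summit of PSMD4 was also at 1 base in HA-RB(245-255) and EV(245-255). These genes were chosen after their values were seen. Summits on the same base in both libraries of a pair made up 2 of 8 shared members in the siRNA pair (9.65% of all shared gene ends), 1 of 13 in the 245-255 pair (9.66%) and 0 of 20 in the RBN pair (2.0%). The median gap of shared members was 118 bp, against 51.0 bp at all shared gene ends, in the siRNA pair, 43.0 bp, against 39.0, in the 245-255 pair and 72.5 bp, against 103, in the RBN pair.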
